A study of Mus musculus with 8 samples.

Results

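Collagen chain genes were examined across the 4 groups of a mouse lung array experiment. A gene was a member if a probe set with exactly 1 gene symbol carried a symbol made of Col, a number, the letter a and a number. This gave 42 collagen genes among 18820 genes tested. They lay on 46 probe sets, and the probe set with the highest mean over the 8 arrays stood for a gene. Col7a1 and Col9a3 lay on probe sets that carry the symbols of 2 genes and were not tested.

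The groups were FVB mice, WT or CCSP-p52, all given dox (doxycycline) at 2 g/L with 2% sucrose in the drinking water for 1 week. CCSP-p52 mice carry FLAG-tagged p52, an NF-kB subunit, which dox induces in airway epithelial cells through the club cell secretory protein promoter, and WT mice were littermates without the transgene. In each genotype 1 group also received LPS, a component of bacterial cell walls, into the trachea 48 hours before sacrifice. Ages were between 8 and 12 weeks, males and females were evenly mixed, and every array read whole lung RNA pooled from 3 mice. With 2 pools per group, the error given here is that between pools of mice. The transgene acts in club cells of the airway, while whole lung RNA comes from every cell type of the organ.

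Collagens are proteins of the extracellular matrix in which alpha chains wind around one another into a helix. Fibrillar collagens form the tension-bearing fibrils of the lung interstitium, and FACIT collagens (fibril-associated collagens with interrupted triple helices) sit on the surface of such fibrils. Type IV collagen is the network of basement membranes, including the membrane shared by alveolar epithelium and capillaries, and type VI collagen makes beaded filaments near cells. Fibroblasts, smooth muscle cells, endothelium and epithelium each make their own set of chains.

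The arrays carried lung RNA: the log2 value of Sftpc, the surfactant gene of alveolar type II cells, was between 13.03 and 13.98, and that of the endothelial gene Pecam1 between 11.42 and 12.28. Nfkb2, which encodes p52 and its precursor, was 9.51 and 9.58 in WT dox, 10.20 and 10.33 in CCSP-p52 dox, 10.83 and 10.56 in WT LPS and 11.28 and 10.53 in CCSP-p52 LPS. The library labelled CCSP-p52 LPS pool 2, at 10.53, thus lay below both WT LPS pools, so that Nfkb2 set CCSP-p52 above WT on dox but in only 1 of the 2 pools with LPS. Whether the probes of this gene read the transgene was not settled here, and the p52 results with LPS are also given without that library. The pools of a group correlated at 0.981 to 0.996. WT LPS pool 2 stood apart in genes of other tissues. The median of 10 squamous and basal epithelial markers was 9.09 there and between 5.96 and 6.16 on the other arrays, and the median of 10 skeletal muscle markers was 9.01 against 6.71 to 7.06. The library labelled CCSP-p52 LPS pool 2 had the lowest leukocyte marker median of the LPS arrays, 11.39 against 12.07 to 12.42.

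Several collagen genes lie side by side in the mouse genome, and the LPS changes of 5 neighbouring pairs are compared below. The adjacent pairs or groups were Col4a1 and Col4a2 on chromosome 8, Col4a4 and Col4a3 on chromosome 1, Col4a6 and Col4a5 on chromosome X, Col6a2 and Col6a1 on chromosome 10, Col3a1 and Col5a2 and also Col9a1 and Col19a1 on chromosome 1, and Col6a6, Col6a5 and Col6a4 on chromosome 9. Promoter windows of 300 bases, 250 before and 50 after a gene's start, were found for 34 of the 42 genes in the RefSeq table of GRCm38.p6. Col4a1 and Col4a2 run in opposite directions from start sites 21 bases apart, and their windows share 78 bases. The start sites of Col4a5 and Col4a6 lie 1343 bases apart. The windows of 4 genes are printed 5′ to 3′ on the gene's own strand, because Col4a1 did not pass the test for LPS while Col4a4 and Col4a5 of the same family fell, and Col6a5 fell the most. They are those of Col4a1 (chr8:11312777-11313076, minus strand), Col4a4 (chr1:82586800-82587099, minus strand), Col4a5 (chrX:141475169-141475468, plus strand) and Col6a5 (chr9:105960594-105960893, minus strand). Capitals mark the letters of the CCAAT box (CCAAT), the GC box (GGGCGG) and the TATA box (TATAAA), or their reverse complements where the match is on the other strand.
Col4a1: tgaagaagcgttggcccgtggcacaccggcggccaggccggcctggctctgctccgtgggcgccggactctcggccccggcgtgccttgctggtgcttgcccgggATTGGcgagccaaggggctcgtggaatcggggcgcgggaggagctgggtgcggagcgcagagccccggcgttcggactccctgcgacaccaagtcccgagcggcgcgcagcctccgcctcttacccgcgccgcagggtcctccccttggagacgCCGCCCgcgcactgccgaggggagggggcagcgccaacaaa
Col4a4: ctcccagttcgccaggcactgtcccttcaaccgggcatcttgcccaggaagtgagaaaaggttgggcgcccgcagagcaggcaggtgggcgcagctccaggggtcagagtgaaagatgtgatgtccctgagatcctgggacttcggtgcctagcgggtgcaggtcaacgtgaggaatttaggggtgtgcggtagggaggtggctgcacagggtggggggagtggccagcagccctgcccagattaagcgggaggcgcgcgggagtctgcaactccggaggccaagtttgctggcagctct
Col4a5: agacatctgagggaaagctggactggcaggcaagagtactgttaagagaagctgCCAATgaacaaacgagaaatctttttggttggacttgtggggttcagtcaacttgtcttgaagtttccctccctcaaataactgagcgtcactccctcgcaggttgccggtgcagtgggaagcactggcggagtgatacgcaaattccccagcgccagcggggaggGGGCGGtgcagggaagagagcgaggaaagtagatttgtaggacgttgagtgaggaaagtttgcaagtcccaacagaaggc
Col6a5: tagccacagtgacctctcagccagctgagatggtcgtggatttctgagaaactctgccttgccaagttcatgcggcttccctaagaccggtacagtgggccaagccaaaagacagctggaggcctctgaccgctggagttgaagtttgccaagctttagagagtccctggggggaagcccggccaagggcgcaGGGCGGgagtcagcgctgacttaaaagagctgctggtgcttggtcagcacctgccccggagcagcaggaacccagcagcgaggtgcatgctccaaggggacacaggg
None of these 4 windows held TATAAA, and that of Col4a4 held none of the 3 motifs. Over the 37 windows of the members, GGGCGG was in 22, CCAAT in 12 and TATAAA in 5. The shares over all 32851 windows of the table were 35.7% for GGGCGG, 37.4% for CCAAT and 13.6% for TATAAA. Of the 13 windows of genes that fell with LPS, 8 held GGGCGG, 2 held CCAAT and 1 held TATAAA. Col6a2 gave 2 overlapping windows among the 13, both with GGGCGG, and Col12a1, Col14a1 and Col4a3 had no window. These are matches of letters, not shown to be binding sites.

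To examine how LPS changed collagen expression, the 4 arrays with LPS were compared with the 4 without in the study's additive model, with genotype as the second factor. LPS lowered 15 of the 42 collagen genes and raised none (limma, with an adjusted p under 0.05). Of all genes tested, 20.8% were lower and 13.5% higher by that rule. At an unadjusted p under 0.05 in limma, 16 collagen genes were lower and 0 higher, where 25.9% of all genes were lower and 18.2% higher. The largest falls were in Col6a5, Col14a1 and Col8a1, the 3 that fell more than 2-fold, and type VI, type IV and fibril-associated chains made up 11 of the 15. The median logFC over the 42 genes was -0.12, against 0.0046 over all genes tested, and 26 of the 42 were negative. Each array with LPS lay below each array without for 15 of the 42 collagen genes (14 of those called, and Col5a2), where this held for 21.8% of all genes. The 27 genes that did not pass had logFC between -0.17 and 0.15.

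**Figure D1:**
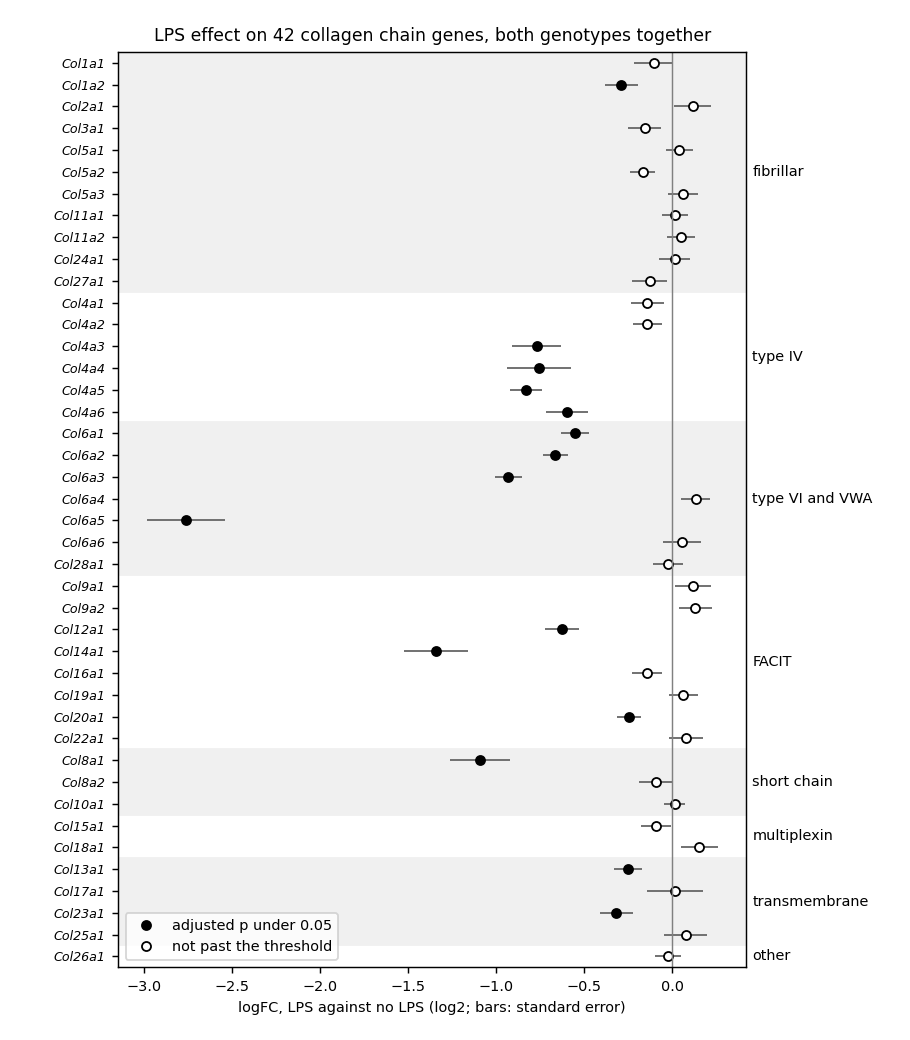
The x axis is the logFC (log2) of LPS against no LPS in the additive model, with bars for the standard error and n = 4 arrays each side. Rows are the 42 collagen genes by class, and filled points mark the 15 with an adjusted p under 0.05, all of them below 0 and led by Col6a5 at -2.76.

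Of the 7 genes of the type VI family and its relatives, 4 fell. Col6a5, which encodes an alpha chain related to that of Col6a3, had log2 values of 10.45 and 9.99 in WT dox, 10.50 and 10.35 in CCSP-p52 dox, 7.20 and 7.52 in WT LPS and 7.23 and 8.29 in CCSP-p52 LPS. The lowest array without LPS was above the highest with LPS. Its logFC was -2.76 (standard error 0.22, 6.80-fold lower, adjusted p = 0.000165), and a second probe set of the gene gave -1.62 (standard error 0.20, adjusted p = 0.000913). Col6a1, Col6a2 and Col6a3 encode the chains of the main type VI molecule, and all were lower. Col6a3 was 10.78, 10.75, 10.88 and 10.97 without LPS (WT, then CCSP-p52) and 9.92, 9.98, 9.94 and 9.81 with LPS. The 4 LPS arrays lay close together below the others, and the logFC was -0.93 (standard error 0.08, adjusted p = 0.000183). Col6a1 went from 10.75, 10.61, 10.85 and 10.78 to 10.11, 10.10, 10.15 and 10.43 (logFC -0.55, standard error 0.08). Col6a2 went from 10.48, 10.41, 10.57 and 10.55 to 9.79, 9.75, 9.79 and 10.02 (logFC -0.66, standard error 0.07). For Col6a1 and Col6a2 alike, the library labelled CCSP-p52 LPS pool 2 was the highest of the LPS arrays. Their falls differed by 0.11 on the log2 scale, a difference that separated all LPS from all dox arrays (exact two-sided permutation test of the per-array difference, p = 0.029, the smallest that its 70 splits allow, and adjusted p = 0.071 over the 5 neighbouring pairs compared). With LPS and dox exchanged only between pools of 1 genotype and number, which allows no p below 0.125, the exact p was 0.125. Col6a4 (logFC 0.13), Col6a6 (0.06) and Col28a1 (-0.022), the last with the same kind of von Willebrand domain, did not pass. Col6a4 and Col6a6 flank Col6a5 in the genome.

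In type IV collagen, 4 of 6 chains fell, and the 2 that did not pass were the chains found in all basement membranes. Col4a1 was 10.60 and 10.76 in WT dox, 10.61 and 10.82 in CCSP-p52 dox, 10.41 and 10.62 in WT LPS and 10.46 and 10.74 in CCSP-p52 LPS. The groups overlapped, and the logFC was -0.14 (95% interval -0.36 to 0.08). Col4a2 was 10.78, 10.88, 10.79 and 10.97 without and 10.66, 10.72, 10.62 and 10.86 with LPS, a logFC of -0.14 (95% interval -0.33 to 0.04). Col4a3, Col4a4 and Col4a5 together form the type IV network of the mature alveolar and glomerular basement membrane. Col4a3 was 9.30, 9.44, 9.33 and 9.46 without LPS and 8.49, 8.61, 8.33 and 9.01 with LPS (logFC -0.77, standard error 0.14, adjusted p = 0.0042). Col4a4 was 8.78, 8.89, 8.69 and 8.87 without and 7.95, 8.19, 7.57 and 8.49 with LPS (logFC -0.76, standard error 0.18, adjusted p = 0.0136). Col4a5 was 8.62, 8.70, 8.60 and 8.63 without and 7.77, 7.86, 7.61 and 7.99 with LPS (logFC -0.83, standard error 0.09, adjusted p = 0.000484). All LPS arrays lay below all others for these 3 genes, with the library labelled CCSP-p52 LPS pool 2 the closest to them. Col4a6, a partner of Col4a5 in basement membranes around smooth muscle, was 7.44, 7.52, 7.39 and 7.48 without and 6.63, 6.94, 6.70 and 7.16 with LPS (logFC -0.60, standard error 0.12, adjusted p = 0.00638).

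The type IV chains lie in adjacent pairs, and the LPS changes were compared within each pair. The LPS change of Col4a1 minus that of Col4a2 was 0.001 on the log2 scale (exact two-sided permutation test, p = 0.97), and that of Col4a3 minus Col4a4 was -0.015 (p = 0.86 by the same exact test). The change of Col4a5 minus that of Col4a6 was -0.23, with no overlap of the per-array differences (exact p = 0.029, adjusted p = 0.071 over the 5 pairs, and exact p = 0.125, the smallest possible, within pools of 1 genotype and number). None of the 5 pairs passed after adjustment.

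Of the 8 FACIT genes tested, 3 fell. Col14a1, which encodes a chain that binds the surface of type I fibrils, was 9.91 and 9.86 in WT dox, 9.88 and 9.71 in CCSP-p52 dox, 8.26 and 8.66 in WT LPS and 8.10 and 8.96 in CCSP-p52 LPS. The pools without LPS lay close together, and the pools with LPS were spread more widely, all below them. Its logFC was -1.34 (standard error 0.18, 2.54-fold lower, adjusted p = 0.00122). Col12a1, its closest relative, was 8.79, 8.75, 8.82 and 8.72 without LPS and 8.23, 8.09, 8.33 and 7.92 with LPS (logFC -0.63, standard error 0.10, adjusted p = 0.00215). Col20a1 was 8.23, 8.37, 8.22 and 8.33 without and 8.06, 7.99, 8.03 and 8.09 with LPS (logFC -0.25, adjusted p = 0.0247), but a second probe set of Col20a1 gave a logFC of 0.03 (adjusted p = 0.83). Col9a1, Col9a2, Col16a1, Col19a1 and Col22a1 had logFC from -0.14 to 0.13 and did not pass. Among the short-chain collagens, Col8a1, which builds hexagonal networks in vessel walls, was 8.76, 8.92, 8.75 and 8.71 without LPS and 7.47, 7.97, 7.29 and 8.04 with LPS. No array overlapped, and the second pool of each genotype was the higher with LPS. Its logFC was -1.09 (standard error 0.17, 2.13-fold lower, adjusted p = 0.00232), while Col8a2 (-0.09) and Col10a1 (0.014) did not pass.

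**Figure D2:**
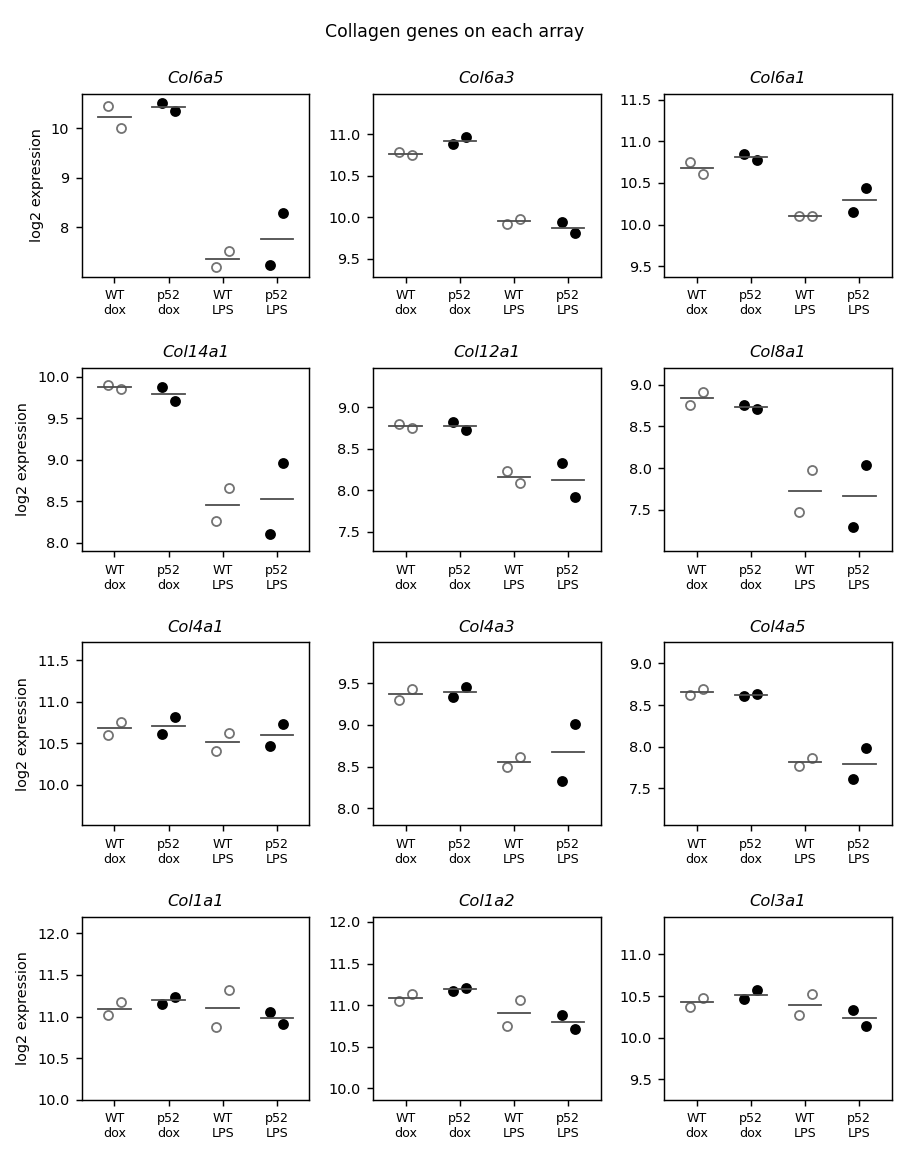
Each panel shows 1 gene: the y axis is the log2 expression value, each point 1 array (a pool of 3 mice; open for WT, filled for CCSP-p52) and each line a group mean, and the y ranges differ between panels. Points with LPS lie below all points without LPS for Col6a5, Col6a3, Col6a1, Col14a1, Col12a1, Col8a1, Col4a3 and Col4a5, but overlap them for Col4a1, Col1a1, Col1a2 and Col3a1.

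Fibrillar collagens moved little with LPS: 1 of 11 passed, Col1a2, and 6 of the 11 were positive. Col1a1 and Col1a2 encode the chains of type I collagen, the main fibril protein of the lung. Col1a1 was 11.02 and 11.17 in WT dox, 11.15 and 11.24 in CCSP-p52 dox, 10.88 and 11.32 in WT LPS and 11.05 and 10.91 in CCSP-p52 LPS. WT LPS pool 2 was the highest of all 8 arrays, and the logFC of -0.11 (95% interval -0.36 to 0.15) did not pass. Col1a2 was 11.05, 11.13, 11.17 and 11.21 without and 10.75, 11.06, 10.89 and 10.71 with LPS. Its logFC was -0.29 (standard error 0.09, adjusted p = 0.0441), and it was the gene among the 15 whose arrays overlapped. Col3a1, the type III chain, was 10.37, 10.48, 10.46 and 10.57 without and 10.27, 10.53, 10.33 and 10.13 with LPS (logFC -0.16, 95% interval -0.38 to 0.06). The type V chains start fibrils and set their width. Col5a1 was 8.48, 8.46, 8.51 and 8.50 without and 8.57, 8.64, 8.55 and 8.35 with LPS (logFC 0.04). Col5a2, the neighbour of Col3a1, was 8.12, 8.23, 8.16 and 8.28 without and 8.04, 8.10, 8.03 and 7.94 with LPS. It was lower on all LPS arrays, and its logFC of -0.17 had an unadjusted p of 0.0445 but an adjusted p of 0.105 from limma. Col5a3 was 7.52, 7.57, 7.53 and 7.66 without and 7.61, 7.84, 7.57 and 7.51 with LPS (logFC 0.06). The LPS changes of Col3a1 and Col5a2 differed by 0.01 on the log2 scale (exact two-sided permutation test, p = 0.89). The cartilage chains Col2a1 (0.12), Col11a1 (0.016) and Col11a2 (0.05), and Col24a1 (0.014) and Col27a1 (-0.13), did not pass.

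Transmembrane collagens are made as single-pass membrane proteins with the triple helix outside the cell, and 2 of 4 were lower with LPS. Col23a1 was 9.42, 9.34, 9.46 and 9.67 without and 9.30, 9.12, 9.06 and 9.14 with LPS (logFC -0.32, adjusted p = 0.032). Col13a1 was 8.64, 8.81, 8.62 and 8.80 without and 8.53, 8.48, 8.52 and 8.34 with LPS (logFC -0.25, adjusted p = 0.0414). The groups did not overlap for either gene, but their nearest arrays came close (9.34 against 9.30 for Col23a1 and 8.62 against 8.53 for Col13a1). Col17a1 (0.018) and Col25a1 (0.08) did not pass, nor did the multiplexins Col15a1 (-0.09) and Col18a1 (0.15), basement membrane chains whose ends are cleaved off as fragments, or Col26a1 (-0.024). The 4 smallest falls depended on the fit. Col13a1 did not pass in any fit without 1 array (logFC -0.21 to -0.29). Of these fits, Col1a2 passed only in the one without WT LPS pool 2. Col23a1 passed only when the array left out was WT dox pool 2, the first WT LPS pool or the second LPS pool of CCSP-p52. Col20a1 passed only when it was the first dox pool of either genotype or the second LPS pool of CCSP-p52. The other 11 genes passed in every fit without 1 array.

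Most of the genes that fell were on brighter probe sets. Of the 22 collagen genes above the median level of all probe sets, 14 fell with LPS, where 30.7% of all genes above that level were lower. Of the 20 below it, 1 fell (Col4a6), where the share of all genes was 11.1%. The median LPS logFC was -0.30 in the first and 0.017 in the second, against -0.073 and 0.037 for all genes of the same levels.

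The LPS effect was also taken within each genotype. In WT lungs 10 collagen genes were lower, where 14.0% of all genes were, and in CCSP-p52 lungs 7 were lower, where 5.03% of all genes were. All 7 were also among the 10, and Col4a3, Col4a6 and Col8a1 passed in WT alone. The logFC of Col6a5 was -2.86 in WT and -2.67 in CCSP-p52, that of Col14a1 -1.42 and -1.26, that of Col6a3 -0.81 and -1.05, and that of Col4a5 -0.84 and -0.82. None of the 15 genes reached a logFC of 0.41 in size with an unadjusted p of at most 0.05 for the difference between these effects, and all 15 were negative in both genotypes. With 1 pool of a group left out, the WT count was 1 without either WT dox pool, 3 without WT LPS pool 1 and 6 without either CCSP-p52 dox pool. The CCSP-p52 count was 0 without CCSP-p52 dox pool 2, 1 without pool 1 of that group, 4 without any single WT pool and 12 without CCSP-p52 LPS pool 2. With the pool number as a block the CCSP-p52 count was 11. In WT lungs no collagen gene was called higher, but with quantile normalization repeated 9 were lower and 2 higher, and with arrays centred on the median 9 were lower and 1 higher. The 2 were Col18a1 (logFC 0.35 as deposited, limma adjusted p = 0.0746) and Col6a6 (0.29, adjusted p = 0.0736), of which Col6a6 was the 1 after centring. The share of all genes called was not counted in these other fits. Their counts show only how the calls depend on the fit.

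Markers of other cell types moved with LPS beside these genes, where 20.8% of all genes were lower and 13.5% higher at an adjusted p under 0.05. All 10 leukocyte markers rose (median logFC 1.68), and the log2 of their summed level was between 13.44 and 13.98 without and between 14.78 and 15.65 with LPS. Lung fibroblast markers fell in 10 of 12 (median -1.17), from a summed level of 15.38 to 15.53 to one of 13.80 to 14.72. Endothelial markers fell in 9 of 10 (15.71 to 15.82 without, 14.65 to 15.43 with LPS), alveolar type I markers in 8 of 9 (15.55 to 15.59 without, 14.80 to 15.32 with) and smooth muscle and pericyte markers in 5 of 9 (13.98 to 14.17 without, 13.05 to 13.70 with). The median log2 value of the alveolar type I markers went the other way, at 11.75 to 11.84 without and 11.88 to 12.07 with LPS. Genes of the fibroblast marker list that fell included Scube2 (logFC -2.71), Tcf21, a transcription factor gene (-1.74), Macf1 (-1.10) and Dpt (-0.68). Whether Macf1 is particular to fibroblasts in whole lung was not tested. The library labelled CCSP-p52 LPS pool 2, with the lowest leukocyte median, was the highest LPS array in the fibroblast and endothelial sums. Of the 15 collagen genes, it was the highest LPS array for 10 and the lowest for 4, and the shares over all genes were not counted. In whole lung RNA, fewer cells of a type and less RNA per cell cannot be told apart. The part of these cell types in the collagen changes was not tested. Of the other markers, 1 of 8 alveolar type II genes rose and 3 fell, 1 of 6 club cell genes rose and 3 fell, 2 of 5 mesothelial genes rose, 1 of 11 cartilage genes rose (Ucma) and 1 fell (Matn4), and none of 10 squamous or of 10 skeletal muscle genes passed (0 and 1 at an unadjusted p under 0.05 from limma).

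Genes that act on collagens moved in both directions with LPS, as did all genes, of which 20.8% were lower and 13.5% higher at an adjusted p under 0.05. Of 20 genes for modification, folding and secretion, 6 rose and 5 fell. The transcription factor gene Creb3l1, an activator of type I collagen genes, rose (logFC 0.98, standard error 0.10). The collagen galactosyltransferase gene Colgalt2 (-1.85, standard error 0.18), the prolyl hydroxylase gene P3h3 (-0.57) and Sec23a, a coat protein of secretory vesicles (-0.36), fell. Of 10 genes for procollagen processing and crosslinking, 3 rose and 4 fell. Adamts3, a procollagen N-proteinase (1.34, standard error 0.09), and Lox, the lysyl oxidase that crosslinks fibrils (1.29, standard error 0.11), rose, while Tll1, a relative of the procollagen C-proteinase (-0.95), and Pcolce, which enhances that enzyme (-0.74), fell. Among 9 receptors and uptake genes, 1 rose and 5 fell. The one that rose was Lair1, an inhibitory collagen receptor of leukocytes (2.50), and the collagen uptake receptor Mrc2 (-1.16), the integrin chains Itga1 (-1.09) and Itga2 (-0.79), the kinase receptor Ddr2 (-0.75) and Itgb1 (-0.26) fell.

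Matrix partners of the collagens were lower more often than higher, where 20.8% of all genes were lower and 13.5% higher. Of 14 other basement membrane genes, 11 fell and none rose (0 higher at the adjusted threshold in limma, median -0.60), among them Pxdn, whose enzyme crosslinks type IV collagen (-1.11, standard error 0.11), the laminin chains Lama3 (-1.68) and Lamb3 (-0.58), and perlecan, Hspg2 (-0.81). Of 20 other interstitial matrix genes, 12 fell and 2 rose (median -0.41). Mfap5 (-1.33), Fbln2 (-0.91) and Fmod (-1.17), genes of microfibrils and of fibril surfaces, fell, and versican, Vcan (1.93), and tenascin C, Tnc (1.75), rose. Of 7 TGF-beta response genes, 4 fell and 1 rose. Tgfbi rose (2.36, standard error 0.15), and Ltbp2 (-1.48), Smad7 (-0.68), Acta2 (-0.58) and Tagln (-0.92) fell, the last 2 being contractile genes of smooth muscle as well.

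To examine whether p52 changed collagen expression, CCSP-p52 and WT lungs were compared at an absolute logFC of 0.41 or more with an unadjusted p of at most 0.05. The size is that of the study's cut-off for genes higher in CCSP-p52 lungs, and the p, the use for falls and the use within a treatment were chosen here. Over all 8 arrays in the additive model no collagen gene was higher or lower, where 0.228% of all genes were higher and 0.0425% lower. No member had an unadjusted p under 0.05 in limma, where 1.42% of all genes were higher and 0.893% lower at that p, and logFC ran from -0.22 (Col17a1) to 0.30 (Col6a5), with a median standard error of 0.09. Without LPS no collagen gene passed either, where 0.569% of all genes were higher and 0.165% lower. None had an unadjusted p under 0.05 in limma, where 1.22% of all genes were higher and 0.510% lower at that p, and logFC ran from -0.11 to 0.20. With LPS, Col17a1 was lower and none was higher, where 1.09% of all genes were lower and 0.972% higher, and 7 members, all lower, had an unadjusted p under 0.05 in limma, where 3.77% of all genes were lower and 3.10% higher at that p. With the library labelled CCSP-p52 LPS pool 2 left out, the logFC of Col17a1 was -0.55 and the median over the 42 genes was -0.12. With CCSP-p52 LPS pool 1 left out instead, the logFC of Col17a1 was -0.58. Over all fits without 1 array that median ran from -0.17 to -0.08, and the calls in both directions varied, as given at the end. No collagen gene reached an adjusted p under 0.05 for p52 in any of these comparisons.

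The small p52 differences had opposite signs in the 2 treatments for many chains. Of the 42 genes, 24 were above 0 without LPS and below 0 with LPS, and the share of all genes that did so was not counted. Below the median level, 15 of 20 members were above 0 without LPS and 1 with LPS, where 56.2% and 39.2% of all genes were. Above that level these were 15 and 8 of 22 members, where 41.4% and 62.8% of all genes were. All 11 fibrillar genes were above 0 without LPS (logFC 0.04 or more, median 0.09) and below 0 with LPS (median -0.17), and none of them passed the cut-off. The share of all genes with these signs was not counted. The 2 WT LPS pools did not always agree. For Col1a1, WT LPS pool 1 (10.88) lay below both CCSP-p52 LPS pools (11.05 and 10.91), and WT LPS pool 2 (11.32) above them. For Col2a1 both WT LPS pools (8.06 and 8.16) lay above both CCSP-p52 LPS pools (7.88 and 7.68). For Col1a1 the logFC was 0.10 (95% interval -0.27 to 0.47) without and -0.12 (95% interval -0.49 to 0.25) with LPS, and for Col3a1 0.09 (95% interval -0.21 to 0.39) and -0.17 (95% interval -0.47 to 0.13). Of the 15 genes that fell with LPS, 4 had a p52 logFC above 0 in both treatments, 5 below 0 in both, 3 above 0 without and below 0 with LPS, and 3 the reverse, none past the cut-off. Among the first 4, Col6a5 was at 0.20 and 0.40, Col6a1 at 0.13 and 0.19, and Col4a3 at 0.03 and 0.12. With LPS, both CCSP-p52 pools lay below both WT pools for 20 of the 42 genes and above them for 1, where 16.0% and 15.3% of all genes did. CCSP-p52 LPS pool 1 alone lay below both WT pools for 27 of the 42, where 33.7% of all genes did. Without LPS, both CCSP-p52 pools lay above for 14 and below for 3, where 16.5% and 16.2% of all genes did. The p52 difference with LPS varied with the level of the probe set. The median p52 logFC with LPS was -0.20 over the 20 members below the median level (all genes there -0.051) and -0.045 over the 22 above it (all genes there 0.046).

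**Figure D3:**
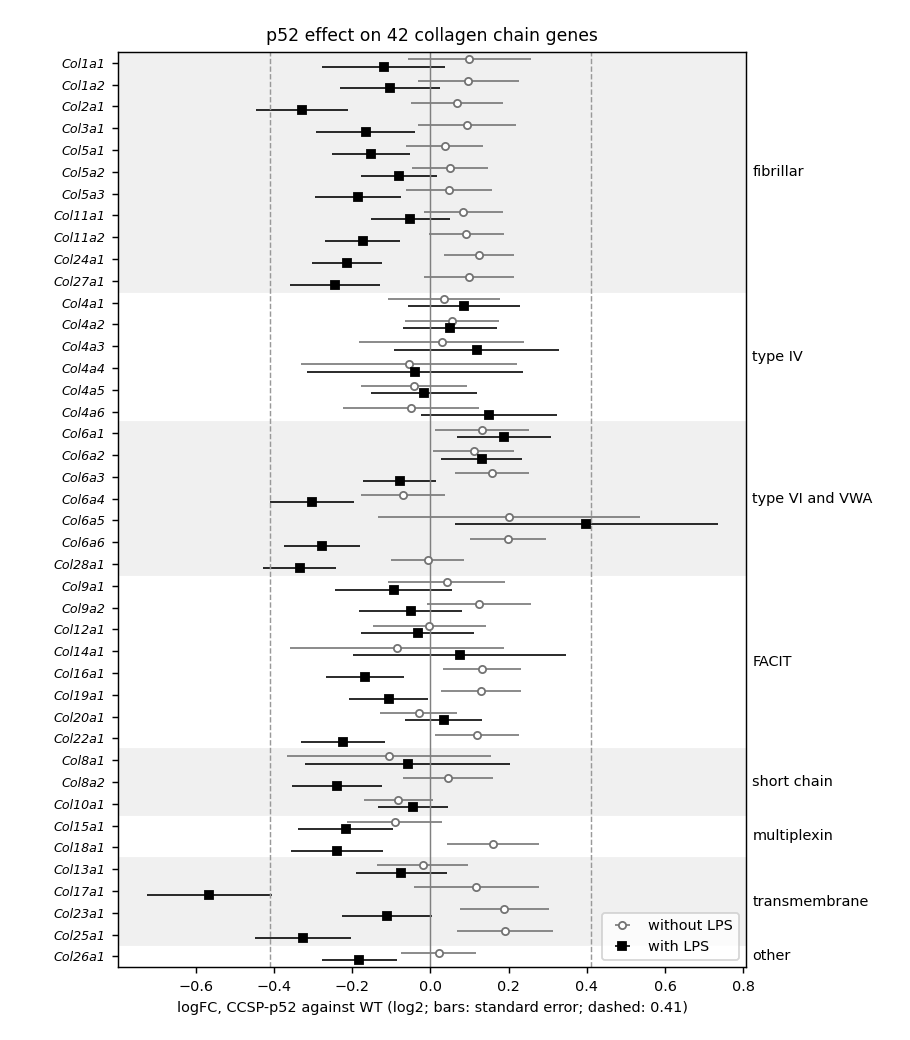
The x axis is the logFC (log2) of CCSP-p52 against WT, with open circles for lungs without LPS, filled squares for lungs with LPS, bars for the standard error (n = 2 pools per group) and dashed lines at a logFC of 0.41 in size. Rows are the 42 collagen genes by class, and Col17a1 with LPS, at -0.57, is the point beyond the dashed lines.

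The difference between the p52 effects with and without LPS was tested as an interaction. At the 0.41 cut-off 3 collagen genes were lower and none higher, where 2.38% of all genes were lower and 1.24% higher. At an unadjusted p under 0.05 in limma 7 were lower and 0 higher, where 3.19% of all genes were lower and 1.83% higher. The 3 were Col17a1 (-0.68, standard error 0.23), Col25a1 (-0.52, standard error 0.17) and Col6a6 (-0.47, standard error 0.14), and their adjusted p was 0.91. All 3 were among the 20 members below the median level, where 4.31% of all genes were lower, against 0.407% above it. The median over the 42 genes was -0.19 (0.0062 over all genes). It was -0.017 over the 22 brighter members (all genes there 0.060) and -0.25 over the 20 dimmer ones (all genes there -0.074). Col25a1, whose protein is a transmembrane collagen of neurons, was 6.74 and 6.91 in WT dox, 6.89 and 7.14 in CCSP-p52 dox, 7.20 and 7.11 in WT LPS and 6.89 and 6.77 in CCSP-p52 LPS. Col6a6 was 7.88 and 7.90, 8.04 and 8.14, 8.21 and 8.16, and 7.99 and 7.83 in the same order. In both genes the WT pools were higher with LPS than without and the CCSP-p52 pools were not. A second, dimmer probe set of Col6a6 was 6.37 and 6.42 in WT dox and 6.39 and 6.45 in CCSP-p52 dox. With LPS it was 6.37 and 6.53 in WT and 6.22 and 6.40 in CCSP-p52, so that the groups overlapped on it. Col25a1 did not reach the cut-off when WT dox pool 1 (-0.43), the second CCSP-p52 pool on dox (-0.39) or the first WT pool with LPS (-0.47) was left out, nor Col6a6 when the library labelled CCSP-p52 LPS pool 2 was (-0.39). Without that library the interaction was -0.67 for Col17a1 and -0.46 for Col25a1, and the median over the 42 genes was -0.18.

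Col17a1 encodes the collagen of hemidesmosomes, which anchor basal and squamous epithelial cells. It was 7.25 and 7.13 in WT dox, 7.33 and 7.29 in CCSP-p52 dox, 7.30 and 7.80 in WT LPS and 7.00 and 6.97 in CCSP-p52 LPS. The CCSP-p52 LPS pools were the lowest of the 8 arrays and WT LPS pool 2 the highest. With LPS its logFC for p52 was -0.57 (95% interval -0.95 to -0.19), with an unadjusted p of 0.00987 and an adjusted p of 0.69 from limma. Without WT LPS pool 2 the logFC was -0.32 and the cut-off was not reached. That pool also held the squamous keratins Krt5 at 11.59 (6.29 to 6.67 on the other arrays) and Krt13 at 11.71 (6.19 to 6.46), and their part in the Col17a1 value was not tested. The interaction of Col17a1 without that pool was -0.43 and remained at the cut-off, but the cut-off was not reached when WT dox pool 2 (-0.62) or the first CCSP-p52 pool on dox (-0.67) was left out.

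**Figure D4:**
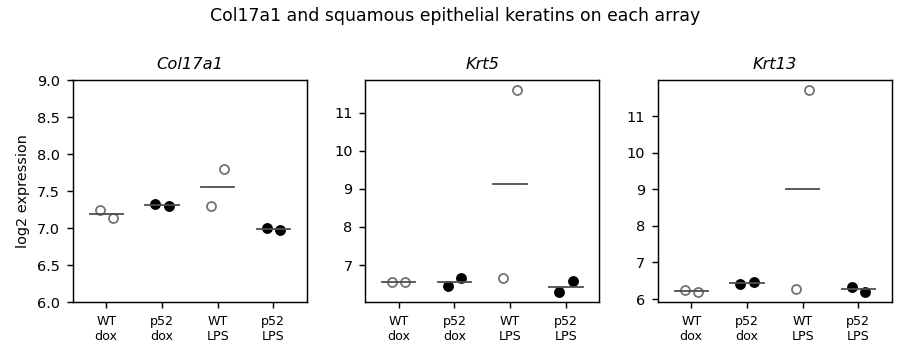
The y axes give the log2 expression value of Col17a1, Krt5 and Krt13, each point 1 array (open for WT, filled for CCSP-p52) and each line a group mean, with y ranges that differ. WT LPS pool 2 is the highest array in all 3 panels, at 7.80 for Col17a1, 11.59 for Krt5 and 11.71 for Krt13.

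The genes that act on collagens showed few p52 differences. At the 0.41 cut-off none of the 6 gene lists or 11 marker lists held a gene that passed in the additive model or without LPS. With LPS, Fmod (0.41), a fibril-binding proteoglycan gene, and the club cell gene Cldn10 (0.49) were higher. Of all genes, 0.972% were higher and 1.09% lower by that rule. The interaction was positive for Cldn10 (0.65) and negative for the collagen chaperone gene Serpinh1 (-0.41) and fibronectin, Fn1 (-0.54). Of all genes, 1.24% were higher and 2.38% lower for it. These calls rest on unadjusted p, and none of these genes reached an adjusted p under 0.05 in limma.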

How the data were processed

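Whole lung RNA was read on 8 Affymetrix Mouse Gene 1.0 ST arrays, 2 pools of 3 mice for each of 4 groups. The authors deposited log2 values from the RMA method (Robust Multichip Average) of oligo, an R package: background was corrected, all arrays were brought to 1 distribution, and the probes of a probe set were summarized. The submitters' processing notes name limma 3.20.8. Equal distributions remove any difference in total RNA between lungs, and scanner files were not used here. The number of arrays limits the precision.

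Symbols were taken from a probe table of the platform, and whether it is of the same version of the array was not settled. Of 35556 probe sets, 23099 are in it, and the 21218 with 1 symbol were tested, while 1881 with several symbols and 12457 with none were not. RefSeq tables gave the neighbours and promoter windows.

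Differences were fitted with limma 3.58.1 (R 4.3.3) by lmFit and eBayes and adjusted by Benjamini-Hochberg over all probe sets tested. The additive model of the study gave the LPS and p52 effects, and a 4-group model with a shared spread gave the effects within groups and their difference. LPS effects were called at an adjusted p under 0.05, and p52 effects and their difference at an absolute logFC of 0.41 or more with an unadjusted p no higher than 0.05. The study used 0.41 for genes higher with p52 in its additive model, and the p and the other uses were chosen here. Neighbouring chains were compared by exact permutation of the arrays and, as an alternative chosen after seeing the data, by exchange within pools of the same genotype and number. The steps were tested on simulated data.

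The members, the gene and marker lists and the tests were chosen with earlier results of these data known. Values of every array are given for genes called in a comparison, for chains of types I, III, IV and V and for neighbouring pairs. From other lists up to 4 called genes are named by p. Lair1, Itgb1, Tnc, Tagln, Ucma, Matn4, Krt5, Krt13, Sftpc, Pecam1 and Nfkb2 were named outside that rule, after their values were seen.

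Differences between pools 1 and 2 correlated at 0.14 to 0.35 across all probe sets tested over the 6 pairs of groups, and at -0.29 to 0.50 across the collagen genes alone. The main fits held no block for the pool number. Only the replicate block and the exchange within pools took the pool numbers as pairs, on the first of these correlations, from the values alone. The alternatives were other probe set filters, renewed normalization or centring, other moderation, array weights, the replicate block, stricter thresholds, another averaging of the LPS effect, the fit without both second LPS pools and each array left out.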

Additional observations from a re-analysis of the deposited data

Results flagged for a closer look

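The p52 effect differed between lungs with and without LPS for 3 collagen genes, by an interaction test at a logFC of 0.41 in size with an unadjusted p of at most 0.05, where 2.38% of all genes were lower and 1.24% higher. The difference (with LPS minus without LPS) was -0.68 on the log2 scale for Col17a1 (p52 effect -0.57 with and 0.12 without LPS), -0.52 for Col25a1 (-0.33 and 0.19) and -0.47 for Col6a6 (-0.28 and 0.20). All 3 lay below the median level of all probe sets, where 4.31% of all genes were lower, against 0.407% above it. On a second probe set of Col6a6 the groups overlapped. The unadjusted p of the 3 genes, in that order, was 0.0199, 0.021 and 0.0112, and none passed adjustment over all genes in limma (adjusted p = 0.91). Each dropped below that cut-off when single arrays were left out: Col17a1 without the second WT pool on dox or the first CCSP-p52 pool on dox, Col25a1 without the first WT pool of either treatment or the second CCSP-p52 pool on dox, and Col6a6 without the library labelled CCSP-p52 LPS pool 2.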

How the results depend on the processing

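Under 19 alternatives, 10 of the 15 falls with LPS in the additive model were called in every one that could test them (Col4a6 is absent when probe sets below the median level are dropped). Col4a4 was lost at the stricter threshold alone (adjusted p under 0.01), Col13a1 in 15, Col1a2 in 11, Col23a1 in 10 and Col20a1 in 8 of 19, and no named result reversed. The cause of the changes below was not tested, and the share of all genes called under each alternative was not counted. Of counts and medians over the collagen genes, 340 values stayed near the main one and 44 moved. With probe sets above the median level alone, the median logFC was -0.3027 for LPS, -0.2504 for LPS in WT, -0.4277 for LPS in CCSP-p52 and -0.0168 for the difference of the p52 effects, and 0 genes were lower for p52 with LPS and 0 for that difference. At the stricter threshold the genes called lower were 4 for LPS in WT, 2 for LPS in CCSP-p52, 0 for p52 with LPS and 0 for the difference of the p52 effects. With quantile normalization repeated, 2 genes were higher with LPS in WT and 5 lower for the difference of the p52 effects. With arrays centred on the median these were 1 and 5, and the median for LPS in WT was 0.0829. With array weights 2 genes were higher with LPS in WT. With all probe sets tested, 4 genes were lower for LPS in CCSP-p52. Without both second LPS pools, 1 gene was higher with LPS in WT, 12 were lower with LPS in CCSP-p52, 0 were lower for p52 with LPS, and the median difference of the p52 effects was -0.1169. With the replicate block, pairing pools of the same number, 11 genes were lower with LPS in CCSP-p52 against 7, and no other count moved by over 1.5 times. With 1 array left out, the ranges were 0 to 1 genes higher for p52 in the additive model, 0 to 2 lower and 0 to 4 higher for p52 with LPS, 1 to 11 lower and 0 to 2 higher for LPS in WT, 0 to 12 lower for LPS in CCSP-p52, and 2 to 6 lower and 0 to 4 higher for the difference of the p52 effects. A group left with 1 pool is assumed to vary like the others.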
